A study of Homo sapiens with 8 samples.

Results

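The genes of glycolysis and of the transcriptional response to low oxygen were compared between side-population (SP) and non-side-population (NSP) cells of J82, a cell line established from a human bladder cancer. The set held 36 of the 57820 genes in the count table. They were taken by symbol from a fixed list of 24 genes of glucose uptake, glycolysis, lactate handling and pyruvate oxidation and 12 genes of oxygen sensing and of the hypoxia response. SP cells are the fraction sorted by flow cytometry because they retain little of the DNA dye Hoechst, and NSP cells are the remainder of the same stained culture. Both groups were grown in DMEM with fetal bovine serum, and the labels give no drug, gene edit or low-oxygen treatment for either. There were 4 SP and 4 NSP mRNA libraries with total counts of 1431823 to 1697218 and of 1489033 to 2073526. Nothing in the labels says that the replicates were separate cultures or sorts, so the p-values measure only the spread between these libraries, which may be technical.

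Glycolysis splits glucose into pyruvate in the cytosol, and cells that pass little pyruvate on to mitochondria reduce it to lactate, which leaves the cell through monocarboxylate transporters. Oxygen sets part of this pathway through the hypoxia-inducible factors (HIF). When oxygen is plentiful, prolyl hydroxylases mark the HIF alpha subunits for destruction. When oxygen falls, the subunits accumulate and bind short DNA elements with the core ACGTG or GCGTG near glycolytic genes, *VEGFA*, *CA9*, *ADM* and others. HIF alpha subunits are set largely at the level of the protein, which RNA-seq does not measure.

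The promoter windows of 5 of the 6 genes called higher in SP cells with or without the replicate block described here are shown. Each holds the core letters that HIF is known to bind. The window of the other gene, *ALDOA*, also holds them (1 match to ACGTG, 178 bases before the start) and is not printed. Each window is the 250 bases before the gene's start, taken at the start farthest upstream, from RefSeq on GRCh38.p14, read 5′ to 3′ on the gene's strand, which is the plus strand for all 5. Capitals mark ACGTG or GCGTG on either strand, and on the other strand these read CACGT and CACGC. The windows are chr11:10304823-10305072 for *ADM*, chr14:61695263-61695512 for *HIF1A*, chr10:6144671-6144920 for *PFKFB3*, chr11:18394313-18394562 for *LDHA* and chr2:74833877-74834126 for *HK2*.
ADM: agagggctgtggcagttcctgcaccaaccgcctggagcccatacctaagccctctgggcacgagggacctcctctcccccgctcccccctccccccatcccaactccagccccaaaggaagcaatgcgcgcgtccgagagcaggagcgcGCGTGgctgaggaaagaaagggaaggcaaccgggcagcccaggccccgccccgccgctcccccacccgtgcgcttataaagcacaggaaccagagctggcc
HIF1A: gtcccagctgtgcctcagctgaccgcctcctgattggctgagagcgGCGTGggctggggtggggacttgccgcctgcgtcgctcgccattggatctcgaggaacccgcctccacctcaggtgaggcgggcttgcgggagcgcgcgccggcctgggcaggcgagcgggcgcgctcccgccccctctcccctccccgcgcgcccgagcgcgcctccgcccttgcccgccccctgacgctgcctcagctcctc
PFKFB3: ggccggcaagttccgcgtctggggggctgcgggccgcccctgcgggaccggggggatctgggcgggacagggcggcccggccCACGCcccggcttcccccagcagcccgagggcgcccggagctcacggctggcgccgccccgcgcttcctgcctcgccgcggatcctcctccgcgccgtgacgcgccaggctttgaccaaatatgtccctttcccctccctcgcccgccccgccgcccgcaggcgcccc
LDHA: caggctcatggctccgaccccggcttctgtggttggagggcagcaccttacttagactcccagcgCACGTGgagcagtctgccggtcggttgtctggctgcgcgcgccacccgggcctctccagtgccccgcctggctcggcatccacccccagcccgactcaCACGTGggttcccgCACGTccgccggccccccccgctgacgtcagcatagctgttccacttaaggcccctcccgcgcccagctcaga
HK2: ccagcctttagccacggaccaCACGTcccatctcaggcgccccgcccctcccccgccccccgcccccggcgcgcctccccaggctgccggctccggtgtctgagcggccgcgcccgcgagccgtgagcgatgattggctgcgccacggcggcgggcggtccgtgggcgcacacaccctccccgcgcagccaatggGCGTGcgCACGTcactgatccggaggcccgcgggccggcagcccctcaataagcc
The match in the *ADM* window begins 101 bases before the start, that of *HIF1A* 204 bases and that of *PFKFB3* 168 bases before it. The *LDHA* window holds 5 matches, since CACGTG reads the same on both strands and is counted on each, and the *HK2* window holds 3. A window was at hand for 31 of the 36 genes. ACGTG or GCGTG stood in 20 of these 31 (64.5%) and in 43.1% of the 27305 gene windows of the same length. ACGTG alone stood in 38.7% of the 31 and in 18.6% of all, and GCGTG alone in 38.7% and 31.9%. A match is a run of letters and not a bound site, and no binding was measured here.

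Expression is given as counts scaled to the normalized library size (CPM), and a gene counted as called if its fold change passed 1.3 with an adjusted p-value below 0.05. Among the markers that check the cells, the keratin *KRT8* averaged 3298 CPM in SP and 4022 CPM in NSP libraries, whereas the urothelial markers *UPK3A* and *KRT20* had no counts in any library. *ABCB1*, a drug efflux pump that also removes Hoechst, averaged 30.3 and 4.05 CPM and was called higher in SP cells (log2 fold change 2.96 ± 0.38 SE, adjusted p = 0.000744, edgeR). Of 6 leukocyte markers, *PTPRC*, *CD3E* and *MS4A1* had no counts in any library, and the summed list ran from 42.8 to 98.0 CPM in SP and from 20.4 to 58.8 CPM in NSP libraries, largely through *CD14*. Of 3 endothelial markers, the sum did not pass 1.28 CPM in any library. The part of these markers in the results for the 36 genes was not tested. In a bulk sample, fewer cells that use a gene and less RNA per cell cannot be told apart.

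In SP cells 2 of these genes, *HIF1A* and *ADM*, were called higher. None of the 36 was called lower (1, *SLC16A1*, had an unadjusted p under 0.05 in that direction). The strand on which reads were counted is not named in the sources used here. Whether the counts listed for these genes come from their own strand was not tested. Counts sufficed for a test of 30, and the called share was 6.67%, where 1.63% of all 9309 tested genes were called higher and 2.03% lower (quasi-likelihood test of edgeR, Benjamini-Hochberg adjusted over all tested genes, n = 4 libraries per group). DESeq2 called *ALDOA* as well and none lower, where it called 1.28% of all its tested genes higher and 2.05% lower. The log2 fold change was above 0 for 25 of the 30 and below 0 for 5, with a median of 0.22, against 0.01 over all tested genes, of which 4819 were above and 4490 below 0. The CPM of the groups did not overlap for 5 of the 30 genes (*GPI*, *ALDOA*, *ENO1*, *HIF1A* and *ADM*), all higher in SP cells, and none was lower without overlap. Over all tested genes 4.78% were higher and 4.97% lower without overlap, or 9.75% in either direction. For each of these 5 genes the exact two-sided permutation test gave p = 0.0286, the smallest that 4 libraries against 4 allow. Groups of 4 without overlap always give this value, so it adds no support beyond the lack of overlap.

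SP and NSP libraries of the same replicate number varied together, and a model with the replicate number as a block called 4 more of the genes higher. These were *PFKFB3*, *ALDOA*, *LDHA* and *HK2*, which made 6 of 30 or 20%, while the block called 5.89% of all tested genes higher and 7% lower. It again called none of the 36 lower. SP exceeded NSP in all 4 same-numbered pairs for 14 of the 30 genes and for 14.9% of all tested genes. Leaving out both libraries numbered 1 kept *HIF1A* and *ADM* called without the block, and with it 4 genes were called, those 2, *PFKFB3* and *ALDOA*. The genes of the mitochondrial chromosome held 3.46% to 7.57% of the counts of SP and 1.65% to 4.01% of those of NSP libraries, and with them left out 2 of the 36 genes were called higher, as before.

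**Figure D1:**
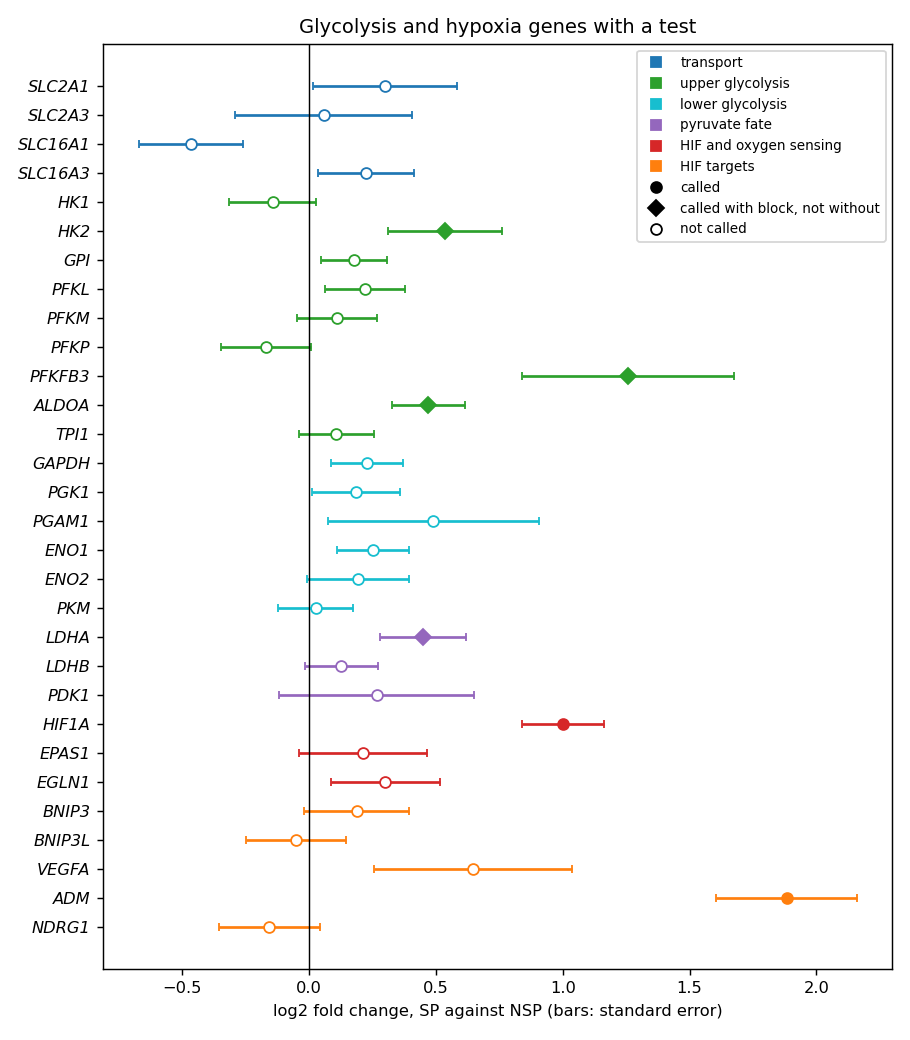
Log2 fold change of SP against NSP cells for the 30 tested genes, ordered by role, with bars for the standard error of the edgeR fit. *ADM* at 1.88 and *HIF1A* at 1.0 are called (filled circles), 4 genes are called with the replicate block and not in the same fit without it (diamonds), and 25 of the 30 points lie right of 0.

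The oxygen-sensing genes were led by *HIF1A*, which encodes the alpha subunit of HIF-1 (ENSG00000100644.12, GRCh37 chromosome 14, 62162231 to 62214977, plus strand). Its expression was 228, 214, 225 and 235 CPM in SP libraries 1 to 4 and 82.5, 122, 110 and 136 CPM in NSP libraries 1 to 4. The SP libraries were close to each other and all lay above the highest NSP library. The means were 225 ± 8.44 and 113 ± 22.8 CPM (SD, n = 4), a log2 fold change of 1.0 ± 0.16 (SE) with adjusted p = 0.00332 in edgeR. Each library held 155 to 415 counts of the gene. An annotated noncoding gene on the other strand, *HIF1A-AS1*, shares 133 bp with its exons and is described with the other such neighbors. *EPAS1*, the alpha subunit of HIF-2, averaged 135 ± 47.2 and 116 ± 35.7 CPM (SD, n = 4), and its log2 fold change of 0.21 ± 0.25 was not called (adjusted p = 0.742, edgeR). *EGLN1*, the main prolyl hydroxylase that marks HIF, was at 117, 55.6, 66.6 and 72.1 CPM in SP and at 52.1, 65.2, 61.2 and 74.0 CPM in NSP libraries. Only SP library 1 stood apart, and the log2 fold change of 0.30 ± 0.21 was 0.04 without it.

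*ADM*, which encodes the vasodilator peptide adrenomedullin and is a known HIF target, differed most among the tested genes of the set (ENSG00000148926.5, chromosome 11, 10326620 to 10328944, plus strand). It was at 370, 233, 209 and 174 CPM in SP and at 83.5, 80.5, 70.8 and 30.4 CPM in NSP libraries. The spread within SP was wide, with library 1 highest, yet the lowest SP library was above every NSP library. The means were 247 ± 86.1 and 66.3 ± 24.5 CPM (SD, n = 4), and the log2 fold change was 1.88 ± 0.28 (adjusted p = 0.00173, edgeR). Without SP replicate 1 it was 1.62 (adjusted p = 0.00283, edgeR). No annotated gene has an exon across *ADM* on the other strand.

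None of the other 4 tested HIF targets was called, and none had an unadjusted p under 0.05 in the edgeR fit without the block. *VEGFA*, the endothelial growth factor, was at 143, 36.2, 33.0 and 45.6 CPM in SP and at 46.3, 55.3, 33.2 and 27.0 CPM in NSP libraries. One SP library was far above the rest and the other 3 lay within the NSP range. Its log2 fold change of 0.65 ± 0.39 was not called (adjusted p = 0.446, edgeR) and was -0.10 without SP replicate 1. *NDRG1*, a stress-induced gene and the HIF target with the most counts here, was at 197, 105, 157 and 166 CPM in SP and at 205, 190, 124 and 176 CPM in NSP libraries. The groups overlapped throughout, with a log2 fold change of -0.16 ± 0.20 (adjusted p = 0.762, edgeR). *BNIP3* and *BNIP3L*, which act in the removal of mitochondria, had log2 fold changes of 0.19 ± 0.21 and -0.05 ± 0.20. *BNIP3* has 44 annotated pseudogenes that can share its reads.

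**Figure D2:**
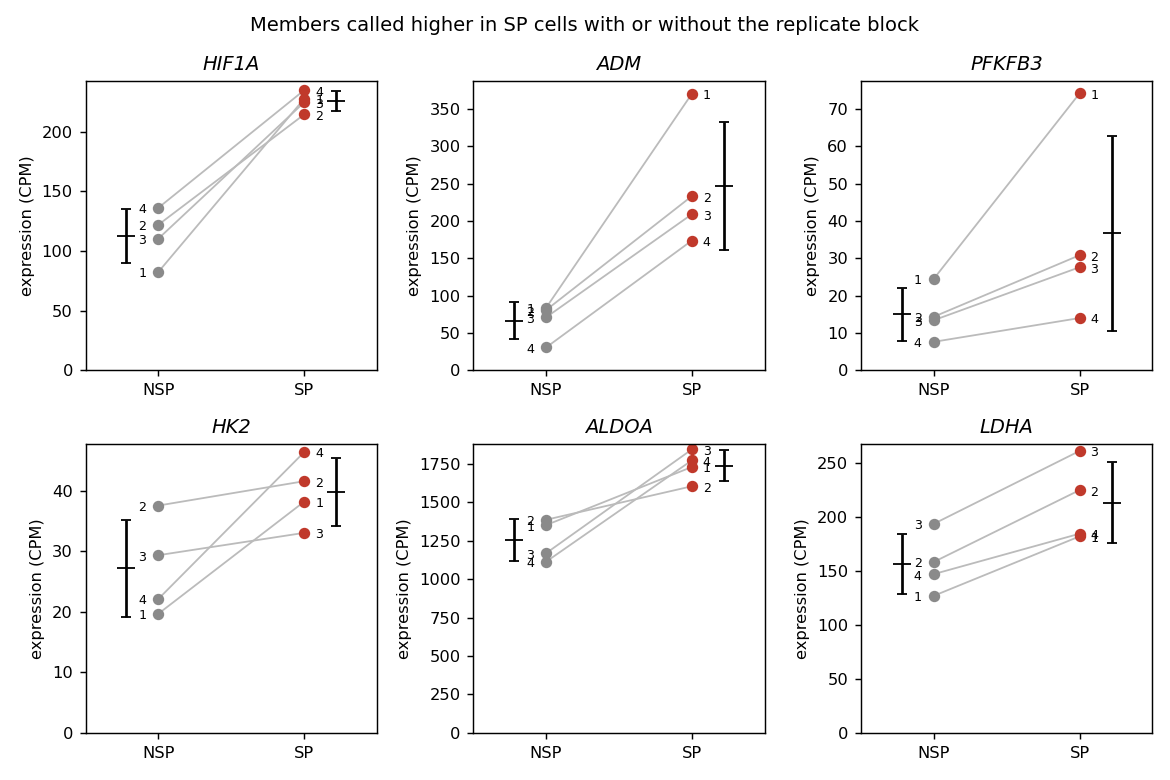
Expression in CPM of the 6 genes called higher in SP cells with or without the replicate block, in each NSP (grey) and SP (red) library, with lines joining libraries of the same number and bars for the mean and SD of 4 libraries. All SP points of *HIF1A*, *ADM* and *ALDOA* lie above all NSP points, and each line of all 6 genes rises from NSP to SP.

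None of the 4 membrane transporters was called in either model. *SLC2A1* (GLUT1), the widespread glucose importer, ranged from 86.1 to 230 CPM in SP and from 67.8 to 159 CPM in NSP libraries, with a log2 fold change of 0.30 ± 0.28 (adjusted p = 0.659, edgeR). Its replicate 1 was highest in both groups, and without SP replicate 1 the log2 fold change was -0.00. *SLC2A3* (GLUT3) had a log2 fold change of 0.06 ± 0.35. *SLC16A3* (MCT4), a lactate exporter, had the most counts of the 4 and was at 228, 272, 306 and 200 CPM in SP and at 208, 275, 230 and 149 CPM in NSP libraries. The values overlapped, with a log2 fold change of 0.22 ± 0.19 (adjusted p = 0.611, edgeR). *SLC16A1* (MCT1), which carries lactate in either direction, was the transporter with lower values in SP cells. It averaged 32.4 ± 4.19 and 44.5 ± 9.95 CPM (SD, n = 4), a log2 fold change of -0.47 ± 0.20 that was not called without the block (adjusted p = 0.263, edgeR) or with it (0.0896).

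In upper glycolysis, from glucose to triose phosphates, edgeR with its filter on low counts called no gene from all libraries without the block, and *PFKFB3*, *ALDOA* and *HK2* were called higher with it. *PFKFB3* makes fructose 2,6-bisphosphate, the strongest activator of phosphofructokinase. It was at 74.2, 30.8, 27.6 and 14.0 CPM in SP and at 24.5, 14.3, 13.4 and 7.61 CPM in NSP libraries. The groups overlapped, the 4 libraries ranked alike in both, and SP was above NSP within every number. Its log2 fold change was 1.26 ± 0.42 (adjusted p = 0.117, edgeR), and with the block 1.24 ± 0.22 (adjusted p = 6.85e-06, edgeR). Without the block it was 0.68 when SP replicate 1 was left out (adjusted p = 0.385, edgeR) and was called when SP replicate 4 was left out (1.51, adjusted p = 0.0433, edgeR) or low counts were not filtered (1.24, adjusted p = 0.000109, edgeR). Without both libraries numbered 1 the block gave 1.03 (adjusted p = 0.00739, edgeR).

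*ALDOA*, the main aldolase of most tissues, was at 1729, 1603, 1843 and 1772 CPM in SP and at 1351, 1385, 1168 and 1112 CPM in NSP libraries. The groups were well apart, with means of 1737 ± 101 and 1254 ± 134 CPM (SD, n = 4). The log2 fold change was 0.47 ± 0.14, with an adjusted p of 0.0887 in edgeR, 0.00533 with the block and 0.0145 in DESeq2. *HK2*, the inducible hexokinase, which phosphorylates glucose, was at 38.2, 41.6, 33.0 and 46.4 CPM in SP and at 19.7, 37.5, 29.3 and 22.1 CPM in NSP libraries. Pairs 1 and 4 differed far more than pairs 2 and 3, with differences of log2(CPM + 1) of 0.92, 0.14, 0.17 and 1.03 in the order of the numbers. Its log2 fold change was 0.54 ± 0.22 (adjusted p = 0.237, edgeR), and 0.55 with the block (adjusted p = 0.0451, edgeR). Leaving out both libraries numbered 1 ended the call of the block, at a log2 fold change of 0.43 (adjusted p = 0.267, edgeR).

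*GPI*, the isomerase of glucose 6-phosphate, was at 260, 267, 263 and 280 CPM in SP and at 243, 247, 235 and 220 CPM in NSP libraries. The groups did not overlap but lay close, with a log2 fold change of 0.18 ± 0.13 (adjusted p = 0.552, edgeR). *HK1*, the constitutive hexokinase, had lower values in SP cells (-0.14 ± 0.17), as did *PFKP*, the platelet-type phosphofructokinase (-0.17 ± 0.18). *PFKL* and *PFKM*, the liver-type and muscle-type subunits, had log2 fold changes of 0.22 ± 0.16 and 0.11 ± 0.16, and *TPI1*, the triose phosphate isomerase, of 0.11 ± 0.15.

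All 6 genes of lower glycolysis, from glyceraldehyde 3-phosphate to pyruvate, had log2 fold changes above 0, from 0.03 to 0.49, and none was called in either model or had an unadjusted p under 0.05 in edgeR. *ENO1*, the alpha enolase, was at 1144, 1058, 1147 and 1262 CPM in SP and at 1012, 1031, 836 and 996 CPM in NSP libraries. SP libraries exceeded NSP libraries without overlap, by a log2 fold change of 0.25 ± 0.14 (adjusted p = 0.406, edgeR). *GAPDH*, often used as a reference gene, was at 1115, 1020, 1182 and 1081 CPM in SP and at 991, 1064, 818 and 879 CPM in NSP libraries. One NSP library lay inside the SP range, and the log2 fold change was 0.23 ± 0.14 (adjusted p = 0.464, edgeR). *PKM*, the pyruvate kinase of most proliferating cells, had the most counts of all 36 genes. It was at 1528, 1607, 1591 and 1491 CPM in SP and at 1618, 1794, 1350 and 1346 CPM in NSP libraries, and its log2 fold change was 0.03 ± 0.15 (adjusted p = 0.958, edgeR). *PGK1*, *ENO2* and *PGAM1* had log2 fold changes of 0.18 ± 0.17, 0.19 ± 0.20 and 0.49 ± 0.42, the last on 9 to 46 counts per library. *GAPDH* has 65 and *PGAM1* 13 annotated pseudogenes, and the counting could split reads with them.

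At the fate of pyruvate, *LDHA*, the lactate dehydrogenase subunit that favors lactate formation, was at 182, 225, 262 and 185 CPM in SP and at 127, 159, 194 and 147 CPM in NSP libraries. The group ranges overlapped, while the 4 pair differences of log2(CPM + 1) were alike at 0.52, 0.50, 0.43 and 0.33. The means were 213 ± 37.6 and 157 ± 28 CPM (SD, n = 4). Its log2 fold change was 0.45 ± 0.17 (adjusted p = 0.189, edgeR), and the block called it at 0.45 ± 0.13 (adjusted p = 0.0124, edgeR). Without both libraries numbered 1 the block gave 0.42 and no longer called it (adjusted p = 0.0867, edgeR). *LDHB*, the subunit more common in oxidative tissue, had a log2 fold change of 0.13 ± 0.14, and *PDK1*, the kinase that shuts pyruvate dehydrogenase, of 0.27 ± 0.38.

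Isozymes were compared on the scale of mean CPM per kb of exon. The length is that of all annotated exons of a gene together, which can be longer than the transcript in use. *ALDOA* was at 454 CPM per kb in SP and 328 in NSP cells, and *ALDOC* at 0.512 and 1.32. *ENO1* was at 221 and 186 CPM per kb and the neuronal enolase *ENO2* at 12.8 and 11.2. The muscle enolase *ENO3*, which is not among the 36 and was named after its values were seen, was higher at 559 and 706 CPM per kb, and 111 bp of its exons lie across those of *PFN1* on the other strand. *LDHA* and *LDHB* were near each other in SP cells, at 35.4 and 35.0 CPM per kb, whereas in NSP cells *LDHA* was at 26.0 and *LDHB* at 32.0. That order depends on the exon lengths used, 6026 bp for *LDHA* and 2983 bp for *LDHB*. In CPM *LDHA* was above *LDHB* in both groups, at 213 against 104 in SP and 157 against 95.6 in NSP cells. *HK1* was above *HK2* in both groups, at 15.6 against 6.72 CPM per kb in SP and 17.2 against 4.59 in NSP cells. These ratios were not tested, nor was whether the counts of *ENO3* come from its own strand.

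Counts were too few for a test of the other 6 genes. *PFKFB4*, a relative of *PFKFB3*, had 32, 7, 29 and 9 counts in SP and 12, 7, 13 and 1 in NSP libraries. The pooled level in SP cells was 2.65 times that in NSP cells, with an exact 95% interval of 1.74 to 4.12 that covers counting error only. Without a filter on low counts edgeR called it (log2 fold change 1.37, adjusted p = 0.0152), whereas DESeq2 did not (adjusted p = 0.263). *ALDOC*, the brain aldolase, shares 296 bp of exon with a gene of the opposite strand and ran the other way, with 1, 2, 2 and 3 counts in SP and 9, 6, 4 and 5 in NSP libraries, a pooled ratio of 0.379 (0.147 to 0.872). *CA9*, the carbonic anhydrase used as a marker of hypoxia, had 0 counts in every SP library and 2, 6, 1 and 1 in NSP libraries. The pooled NSP level of *CA9* was 2.93 times a floor of 3 counts over the SP group, a figure that leaves out counting error. Without a filter on low counts edgeR did not call *CA9* (adjusted p = 0.109). *EGLN3*, a prolyl hydroxylase that HIF induces, had 16 counts in SP and 10 in NSP libraries, *P4HA1*, a collagen hydroxylase subunit, 37 and 38, and *KDM3A*, a histone demethylase, 18 and 16, with pooled ratios whose intervals all span 1.

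Further genes of the same pathways that are not among the 36 were set beside them. Of 34 other hypoxia response genes, 20 were tested and none was called without the block or by DESeq2, while 2 had an unadjusted p under 0.05 in the edgeR fit. The median log2 fold change was 0.12, with 11 above and 9 below 0. With the block *STC1*, which encodes the hormone stanniocalcin, and *RAB20*, a small GTPase, were called higher. *STC1* was at 70.6, 18.1, 27.6 and 67.0 CPM in SP and at 22.9, 13.8, 23.6 and 20.1 CPM in NSP libraries, with a log2 fold change of 1.18 ± 0.36 (adjusted p = 0.0896, and 3.53e-05 with the block, edgeR). That of *RAB20* was 1.18 ± 0.38 (adjusted p = 0.108, and 0.00295 with the block, edgeR). Of 21 other genes of glycolysis, 4 were tested and none was called in either model or by DESeq2, and 1 had an unadjusted p under 0.05 without the block.

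Library 1 carried many of the highest values of the hypoxia response. Among the 25 tested HIF targets and other hypoxia response genes, SP library 1 was the highest SP library for 12 and NSP library 1 the highest NSP library for 9. Of the 30 tested genes of the set, SP library 1 was highest for 10 and SP library 3 for 11, or 33.3% and 36.7%, where these libraries were highest for 24.8% and 26.0% of all tested genes. NSP libraries 1 and 2 were highest for 11 and 12 of the 30 genes, or 36.7% and 40.0%, and for 27.8% and 19.7% of all tested genes.

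For respiration in the same cells only RNA counts listed for mitochondrial and nuclear genes were at hand, and respiration itself was not measured. Most of the mitochondrially encoded protein genes were called higher in SP cells. Of the 13 protein genes that the mitochondrial chromosome encodes, 12 were called higher in SP cells, and all 13 with the block, with a median log2 fold change of 1.42. *MT-ND5*, a subunit of complex I, was at 3791, 2007, 2396 and 4500 CPM in SP and at 639, 437, 847 and 1242 CPM in NSP libraries. Every SP library exceeded every NSP library, with a log2 fold change of 2.01 ± 0.30 (adjusted p = 0.00187, edgeR). *MT-ND2* of complex I and *MT-CYB* of complex III had log2 fold changes of 1.76 ± 0.28 and 1.91 ± 0.31 (adjusted p = 0.00332 for each, edgeR). *MT-ND6*, the one protein gene on the other mitochondrial strand, had by far the most counts of the 13. It averaged 33849 CPM in SP and 18364 CPM in NSP libraries, where the sum of the other 12 averaged 13207 and 4480 CPM. The log2 fold change of *MT-ND6*, 0.88 ± 0.30, was not called from all libraries without the block and was called with it (adjusted p = 0.121 and 8.56e-07, edgeR). Whether the counts of the 13 genes come from their own strand was not tested. The count of 12 called genes rested on few libraries, since it was 7, 5 and 6 without NSP replicates 1, 2 and 3 and 6 without SP replicate 4. With the block and without both libraries numbered 1 all 13 were called.

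Among 76 nuclear genes of the respiratory chain, 61 were tested, and none was called without the block, while 14 had an unadjusted p under 0.05 in edgeR, all higher in SP cells, and DESeq2 called 1. Their median log2 fold change was 0.30, with 50 above and 11 below 0. The block called 5 higher, or 8.20% of the 61 beside 5.89% of all tested genes. Among them were *ATP5F1B* of the ATP synthase (0.49 ± 0.15, adjusted p = 0.0777, and 0.00443 with the block, edgeR), *SDHB* of complex II (0.71 ± 0.22), *NDUFA1* of complex I (0.73 ± 0.25) and *COX5B* of complex IV (0.42 ± 0.17). Of 24 genes of pyruvate entry and the citric acid cycle, 19 were tested, with a median of 0.20 and none called without the block or by DESeq2, and 2 higher and 1 lower had an unadjusted p under 0.05. *DLD*, a subunit that pyruvate dehydrogenase shares with other complexes and which has 300 bp of exon across a gene of the opposite strand, was called lower with the block (-0.58 ± 0.20, adjusted p = 0.123, and 0.0172 with the block, edgeR).

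Summed over the glycolytic enzymes of the set, expression was 6724 to 7396 CPM in SP and 5513 to 6689 CPM in NSP libraries. The lowest SP sum was just above the highest NSP sum. With *ENO3* added the sums overlapped, at 9081 to 9766 CPM in SP and 7953 to 9989 CPM in NSP libraries. The sum of the mitochondrially encoded genes other than *MT-ND6* was 8063 to 18846 CPM in SP and 2656 to 7445 CPM in NSP libraries. Set against the glycolytic sum of the same library, it was 225%, 120%, 137% and 271% in SP libraries 1 to 4 and 66.6%, 39.7%, 65.1% and 135% in NSP libraries 1 to 4. NSP library 4 thus lay within the SP range, and SP was above NSP within each number. *MT-ND6*, left out of that sum, was at 21929 to 51970 CPM in SP and at 11323 to 27793 CPM in NSP libraries, and these ranges overlapped. The nuclear respiratory chain summed to 2887 to 3760 CPM in SP and 2669 to 2832 CPM in NSP libraries. Whether the counts in these sums come from the genes' own strand was not tested.

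**Figure D3:**
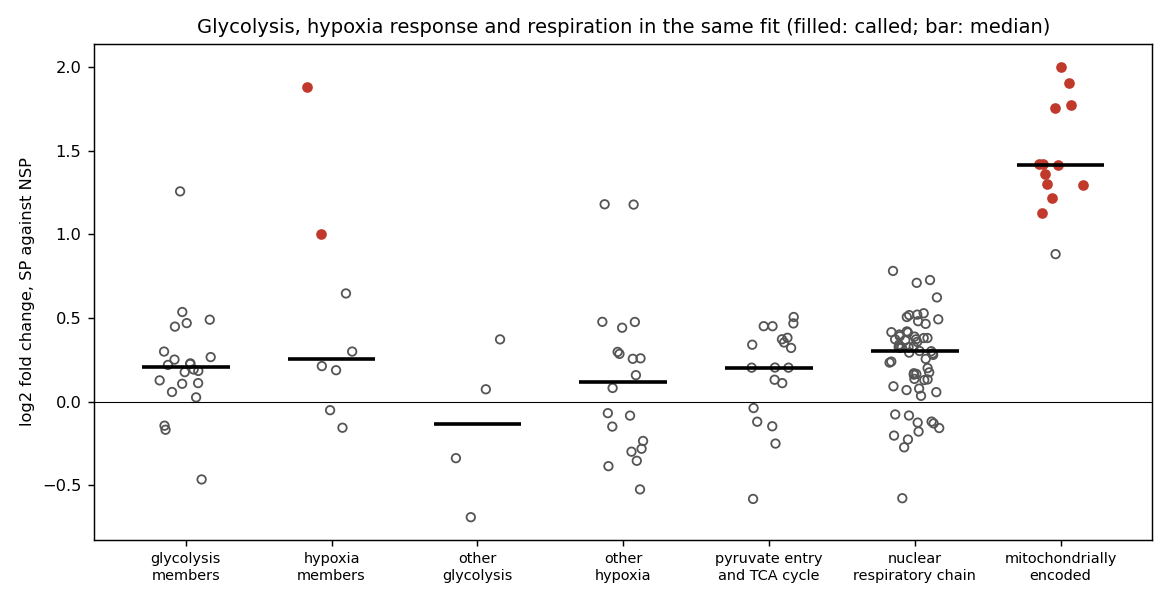
Log2 fold change of SP against NSP cells for each tested gene of 7 gene lists, with filled points for genes called without the replicate block and a bar for the list's median. The mitochondrially encoded genes have a median of 1.42, while the medians of the other lists lie between -0.13 and 0.30.

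The strand on which reads were counted is not named in the sources used here, and 14 of the 36 genes share exonic bases with an annotated gene of the opposite strand. *GAPDH* had 13292 counts over the 8 libraries, while ENSG00000269968, a noncoding gene that lies inside its exons on the other strand (GRCh37 chromosome 12, 6646960 to 6647536), had 464412. That gene was not called, with a log2 fold change of -0.00 ± 0.18 (adjusted p = 0.996, edgeR), beside 0.23 for *GAPDH*. *HIF1A-AS1* (chromosome 14, 62147441 to 62162610, minus strand) had 10921 counts beside 2142 of *HIF1A*. It was at 1081, 1168, 1087 and 966 CPM in SP and at 510, 663, 693 and 672 CPM in NSP libraries and was called higher in SP cells, with a log2 fold change of 0.76 ± 0.15 (adjusted p = 0.00949, edgeR). Without both libraries numbered 1 the log2 fold change was 0.67 and not called (adjusted p = 0.0715, edgeR), while the block called it in the same libraries (0.66, adjusted p = 0.00181, edgeR).

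Next to *VEGFA*, ENSG00000272114 was at 260, 63.0, 37.4 and 63.3 CPM in SP and at 61.7, 82.5, 65.1 and 51.2 CPM in NSP libraries. As with *VEGFA*, SP library 1 alone stood high, and the log2 fold change was 0.69 with all libraries and -0.27 without it. *CSNK1D*, a kinase gene across *SLC16A3*, had 27188 counts beside 3082 and a log2 fold change of -0.08 ± 0.19. *ARHGEF39*, which lies across 35.7% of the exon length of *CA9*, had 4684 counts beside 10 and a log2 fold change of -0.00 ± 0.14. *SPSB2* next to *TPI1*, *ENO1-AS1*, *PDK1-AS1* and ENSG00000237768 next to *P4HA1* had log2 fold changes of 0.49, 0.17, -0.48 and 0.15, and none was called. Of the 22 genes of the set without such an exon, 19 were tested, 1 was called higher (*ADM*), and 5 with the block, or 5.26% and 26.3%, beside 1.63% and 5.89% of all tested genes. Over all 15 pairs of a gene of the set and such a neighbor, the neighbor had more counts per kb in 8 and the gene of the set in 7. This tally mixes neighbors that share from 0.6% (*SPSB2*) to 100% of their exon length. The neighbors of *GAPDH*, *VEGFA* and *ALDOC* share 99.3% to 100% of theirs, and each had more counts per kb than the gene of the set. Whether the counts listed for a gene come from its own strand was not tested, also for the 22 genes without such an exon.

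**Figure D4:**
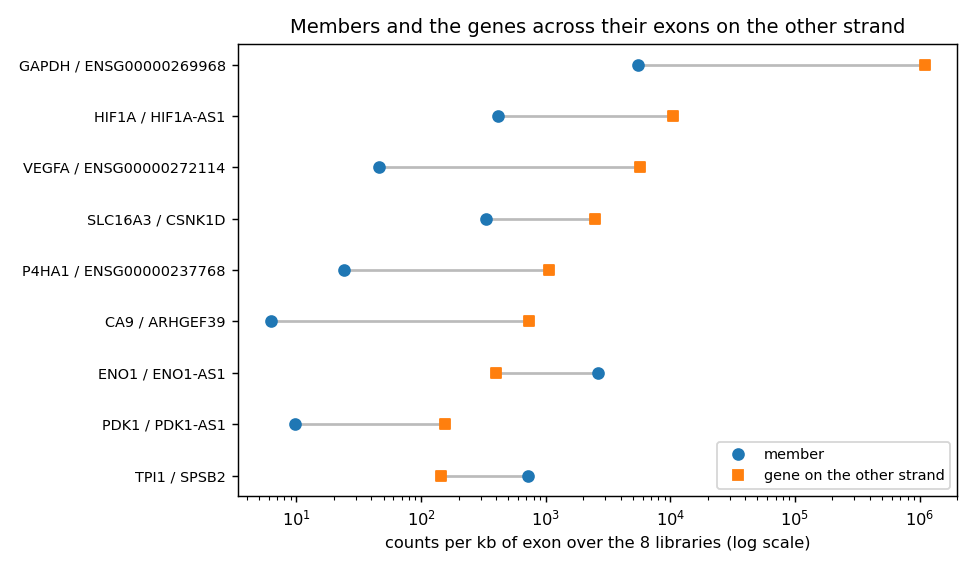
Counts per kb of exon over the 8 libraries, on a log scale, for 9 genes of the set (circles) and the gene across their exons on the other strand (squares), for neighbors with at least 100 counts. The neighbor has more counts per kb than the gene of the set except next to *ENO1* and *TPI1*, while in 5 of the 6 pairs with fewer counts, not drawn, the gene of the set has more.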

How the data were processed

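RNA-seq counts of 4 SP and 4 NSP libraries were used, grouped by their titles. The authors aligned single-end reads to hg19 with STAR and counted them per gene with featureCounts (Subread), and the deposited values are raw counts without normalization. Total counts per library were 1431823 to 2073526, which limits the precision for genes with few counts. The paper reports far more raw reads per sample than this, so most reads were not counted on a gene. Why they were not was not tested, and it can bear on every gene. Replicates differed by more than sampling noise (chi-square per degree of freedom 5.90 to 13.8).

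Symbols were joined by unversioned identifier to GENCODE on GRCh37 (55538 genes, 96.1%), and genes without a match held 4.06% of counts. All 36 genes matched. The whole table was fitted in edgeR 4.0.16 (R 4.3.3) by the quasi-likelihood test with TMM normalization and Benjamini-Hochberg adjustment, after filterByExpr (count minimum 10, total minimum 15). Calls needed an adjusted p under 0.05 and a fold change over 1.3. The standard error is the log2 fold change over the square root of F. For single genes, log2(CPM + 1) was permuted exactly over the libraries (two-sided, scipy 1.17.1). The test was also run on simulated data that gave all genes the same dispersion and held no replicate effect. That setting is simpler than these libraries, so it does not show how the test behaves on them. The labels do not say that same-numbered SP and NSP libraries belong together. They were taken as pairs because their deviations from the group means correlated at 0.380, 0.203, 0.322 and 0.321 for 1 to 4. The pairing is thus inferred from these same data. Alternatives were the replicate block, DESeq2 1.42.0, other size factors and filters, no mitochondrial genes, leaving out each library and the omission of both libraries numbered 1, which was chosen after seeing the data.

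The genes and lists were chosen with earlier results of these data known. Named are all 36 genes, other-strand neighbors with at least 100 counts, the mitochondrial genes with the smallest p, and up to 4 genes per further list called in either model. *MT-ND6* and the cell markers were named after their values were seen. *TXNIP* and *PECAM1* found no identifier and were not analysed.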

Additional observations from a re-analysis of the deposited data

Results flagged for a closer look

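The highest or lowest of 4 libraries stood apart from its group by Dixon's criterion (gap to the next library over the group's range) in 5 of 86 groups, where chance gives about 1 in 20, or 4.3. These were *VEGFA* in SP replicate 1, which was the highest (0.886), *PFKM* in NSP replicate 3, the highest (0.869), *MT-ATP6* in NSP replicate 4, the highest (0.843), *SLC16A1* in SP replicate 2, the lowest (0.842), and *PFKL* in SP replicate 4, the lowest (0.837). None of the 4 genes of glycolysis and hypoxia among them was called in the fit of all libraries with or without the block.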

How the results depend on the processing

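The 2 genes of the set called higher became 4 without a filter on low counts, 6 with the replicate block, 4 with the replicate block and without the pair numbered 1, and 1 among genes with no exon across the other strand, and 2 to 3 with any 1 library left out (3 without SP replicate 4, which adds *PFKFB3*). None was called lower under any alternative run. The mitochondrially encoded genes called higher were 5 to 13 with any 1 library left out and were 5 without the pair numbered 1 but 13 with the replicate block and without that pair. Nuclear respiratory chain genes called higher, 0 at first, were 1 with DESeq2, 1 without a filter, 5 with the block and 3 with the block and without pair 1. Other hypoxia response genes called were 3 without a filter, 2 with the block, 2 with the block and without pair 1, and 0 to 1 with any 1 library left out (1 without SP replicate 2). Genes of pyruvate entry and the citric acid cycle called were 1 with the block. Over all tested genes, 152 higher and 189 lower became 303 and 381 without a filter, 548 and 652 with the block, 343 and 469 with the block and without pair 1, and 75 and 91 without pair 1, and 69 to 164 and 89 to 181 with any 1 library left out (lowest without NSP replicate 2, and 93 higher without NSP replicate 1 and 91 higher and 110 lower without SP replicate 2). Of the single genes named, the block changed no call beyond those given in the text, and none of the genes of the set called in either model changed sign under any alternative run. ENSG00000272114, the neighbor of *VEGFA*, was called without a filter (0.67, adjusted p = 0.0269, edgeR) and was -0.27 without SP replicate 1 and -0.30 without the pair numbered 1. The causes were not tested. The 6 genes of the set without a test had at most 110 counts over the 8 libraries.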

Other observations

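*ENO3*, the muscle enolase, was chosen after its values were seen and was the gene of enolase with the most counts, 35818 over the 8 libraries beside 13742 of *ENO1*. It was at 2282, 2815, 2370 and 2123 CPM in SP and at 3087, 3300, 3299 and 2441 CPM in NSP libraries. The groups overlapped, and its log2 fold change of -0.34 ± 0.16 was not called (adjusted p = 0.304, edgeR). Its exons lie across 111 bp of the exons of *PFN1* on the other strand, which had 15029 counts. Per kb of exon *ENO3* had 8345 counts and *PFN1* 9399. Whether the counts of *ENO3* come from its own strand was not tested. Among the markers of the cells, *KRT7* was called lower in SP cells (log2 fold change -1.35). Of 5 tested mesenchymal markers 4 had log2 fold changes below 0, and the median was -0.67. Among these *FN1* was called lower (-1.25), and *VIM* and *SPARC* were called lower with the block (-0.76 and -0.67 without it), while *COL1A2* was called higher (2.09). *CD14* was called higher with the block (0.96 without it). The part of these marker differences in the results for glycolysis and hypoxia genes was not tested.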
